A study of Mus musculus with 12 samples.

Results

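The subunits of the mitochondrial respiratory chain were described across 12 RNA-seq libraries of mouse liver and lung taken 6 h after CLP or sham surgery. Members were the genes of the count table whose symbols carry the names of subunits (mt-Nd, mt-Co, mt-Cytb and mt-Atp for the genes of mitochondrial DNA, and Nduf, Sdh, Uqcr, Cox4 to Cox8 and Atp5 for nuclear genes) and that the annotation calls protein-coding. This gave 98 of the 55414 genes in the table, after 12 of 110 matching genes that were not protein-coding had been left out. Of the 98, 13 are encoded in mitochondrial DNA and 85 in the nucleus. By complex there were 7 mitochondria-encoded and 35 nuclear members of complex I, 4 nuclear members of complex II, 1 and 8 of complex III, 3 and 20 of complex IV, and 2 and 18 of complex V. The Atp5o symbol covers 2 gene identifiers, so the 98 genes carry 97 symbols.

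The groups were liver CLP, liver sham, lung CLP and lung sham, with 3 libraries each, all from wild-type C57BL/6J mice. CLP is the usual abbreviation for caecal ligation and puncture, an operation that lets gut bacteria leak into the abdomen and serves as a model of sepsis; the labels give only the abbreviation and do not describe the sham operation. Total RNA was taken from whole pieces of organ, so fewer cells of a type and less RNA per cell cannot be told apart in any value that follows. The labels do not say whether the 3 libraries of a group came from separate mice or whether liver and lung of the same number share a mouse, so p-values measure the spread between these libraries, which may be technical.

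The respiratory chain sits in the inner mitochondrial membrane. Complex I (NADH dehydrogenase) and complex II (succinate dehydrogenase) pass electrons to coenzyme Q, complex III (the cytochrome bc1 complex) hands them to cytochrome c, and complex IV (cytochrome c oxidase) delivers them to oxygen. Complexes I, III and IV pump protons, and complex V (ATP synthase) uses the resulting gradient to make ATP. Every complex but complex II mixes subunits encoded in mitochondrial DNA, which is transcribed as long precursors inside the organelle, with subunits encoded in the nucleus and imported. Liver is rich in mitochondria, and in sepsis the function of mitochondria in organs is a long-standing subject of study.

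Libraries held 10559895 to 15854117 assigned reads, so that 3 reads correspond to 0.189 to 0.284 CPM (counts of a gene scaled to a common library size), which is taken as the floor of detection and covers counting error only. The organ labels matched their markers: the summed level of 11 hepatocyte markers was 68612 to 107311 CPM over the 6 liver libraries and 52.9 to 148 CPM over the 6 lung libraries, and that of 8 alveolar type 2 markers was 21587 to 27821 CPM in lung and 82.7 to 106 CPM in liver. Libraries of a group differed by more than sampling noise, with a chi-square per degree of freedom of 5.28 to 37.6. Markers of neutrophils moved with CLP in both organs. All 11 tested neutrophil markers were called higher in liver, against 21.4% of all genes. The summed level of the 13 listed was 6600, 7053 and 6154 CPM in liver CLP libraries, against 1644, 2581 and 1013 CPM in liver sham libraries. All 13 were called higher in lung, against 23.9% of all genes. Their sum was 14246, 15484 and 9983 CPM in lung CLP libraries, against 1345, 1214 and 1213 CPM in lung sham libraries. Between sham libraries 11 of 12 tested markers were called higher in lung than in liver and 1 lower. The sums in liver and lung may thus rest on different markers. The part of these cells in the subunit values was not tested.

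The 13 mitochondria-encoded messenger RNAs fell into 7 that were counted and 6 that were not. Summed over the 12 libraries, mt-Co1 (the catalytic subunit of complex IV) had 1431094 reads, mt-Cytb (cytochrome b of complex III) 1029240, mt-Nd1 711556, mt-Nd2 639210, mt-Nd5 569328, mt-Nd4 413304 and mt-Nd6 2807, the mt-Nd genes all being subunits of complex I. In contrast mt-Co2 and mt-Co3, the other core subunits of complex IV, had 2 and 4 reads, mt-Nd3 had 19, and mt-Nd4l, mt-Atp6 and mt-Atp8 had 0. Genes that lie side by side on mitochondrial DNA thus held either very many reads or next to none, as the plot of counts in gene order shows. To see whether these genes are unique among annotated transcripts, each stretch of 50 bases of their own transcripts was looked for in all others. Between 98.0% and 100% of the stretches of mt-Co2, mt-Co3, mt-Atp6, mt-Nd3 and mt-Nd4l also occur in a nuclear pseudogene copied from mitochondrial DNA, against 62.2% for mt-Nd4, 51.1% for mt-Co1, 8.2% for mt-Nd2, 7.6% for mt-Nd5 and 0% for mt-Nd1, mt-Nd6 and mt-Cytb. The exception in this search is mt-Atp8, which had 0 reads and no stretch shared with another annotated transcript. Sequence outside annotated transcripts was not searched, so 0% does not show that mt-Atp8 has no nuclear copy. The closest copies of these 5 genes held 1 to 7 reads over the 12 libraries, so the missing reads are not listed under them either. The copy of mt-Co2, Gm28661, matches 681 aligned bases of the gene with 0 mismatches, and those of mt-Atp6 (678 bases), mt-Co3 (783), mt-Nd3 (342) and mt-Nd4l (294) also match with 0 mismatches.

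The opening bases of mt-Co2 and of its copy are shown as an example of such a match. Both are given from GENCODE's mouse annotation on GRCm38, mt-Co2 at chrM:7013-7102 on the plus strand and Gm28661 at chr1:24615476-24615565 on the minus strand, 5′ to 3′. No base differs between them, so none is in capitals.
mt-Co2: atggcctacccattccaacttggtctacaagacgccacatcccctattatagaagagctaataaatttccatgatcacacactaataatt
Gm28661: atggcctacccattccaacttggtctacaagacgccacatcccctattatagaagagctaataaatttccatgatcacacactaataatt
How reads with more than 1 best place were treated is not given in the sources used here, so the 6 uncounted genes give no measurement of expression. The reads of mt-Co1 and mt-Nd4 come at most from the part of each gene that is unique, if such reads were dropped. A comparison of the same gene between groups is not affected by this unless the share of lost reads differs, and levels are not compared between mitochondria-encoded genes.

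**Figure D1:**
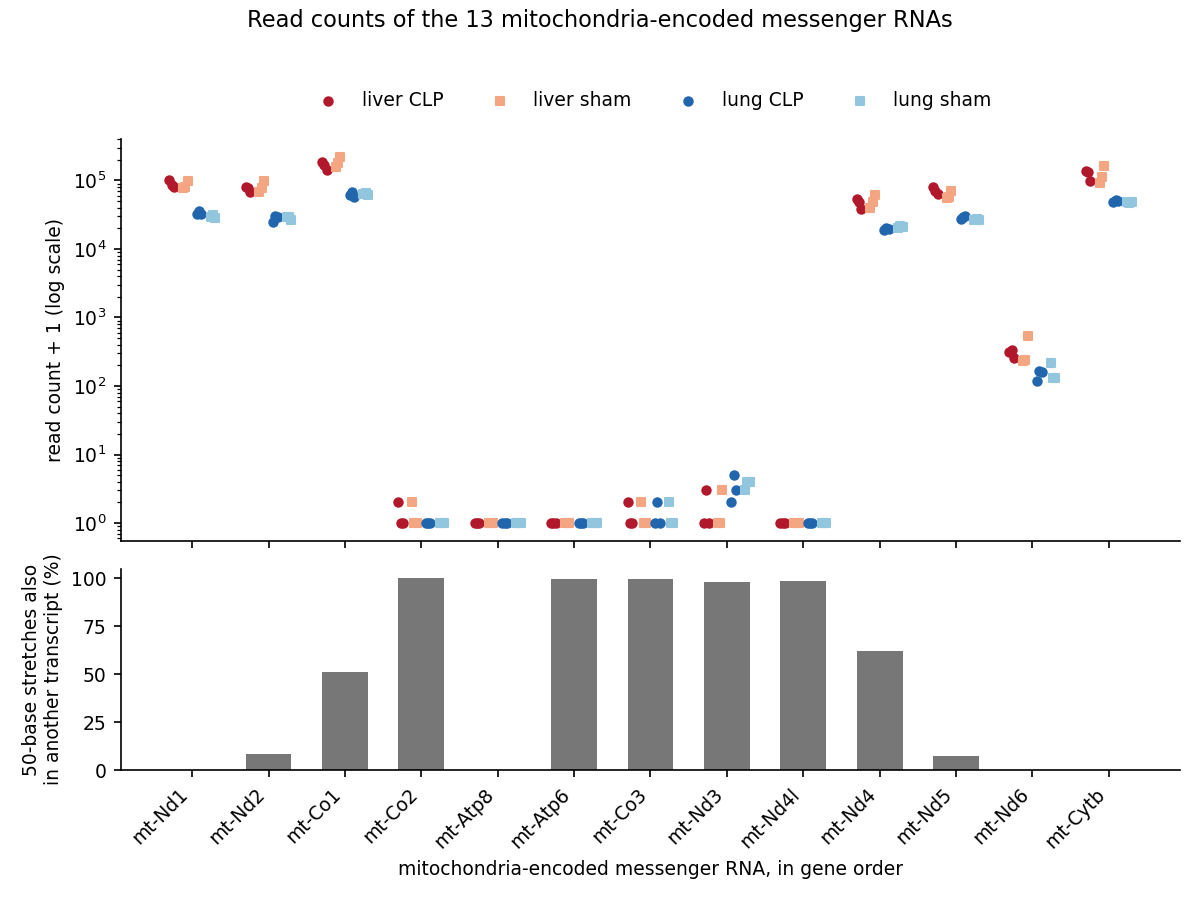
Read counts of the 13 mitochondria-encoded messenger RNAs in the order of their genes (upper panel, counts plus 1 on a log axis, 1 point per library, 3 libraries a group), and the share of 50-base stretches of each transcript that also occur in another annotated transcript (lower panel, percent). The 5 genes with a share of 98.0% or more had 0 to 19 reads over all libraries, mt-Atp8 had 0 reads with a share of 0%, and the other 7 had 2807 to 1431094 reads.

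Of the 85 nuclear members, 3 had 0 reads in every library: Cox7b2 and Cox8c, which are known as testis isoforms, and the second identifier of Atp5o. In liver 77 nuclear members passed the filter on low counts, and in lung 82. The 8 nuclear members that did not pass in liver were 7 isoforms of complex IV subunits and the second Atp5o entry, and the 3 that did not pass in lung were those at 0. RPKM, which are CPM divided by the transcript length in kilobases, place the genes on a common scale within an organ. In liver the highest nuclear members were Atp5b and Atp5a1, the catalytic beta and alpha subunits of ATP synthase, Atp5g3 (its ring-forming subunit c) and Ndufa4 (a complex IV subunit despite its name), at 522, 334, 354 and 314 RPKM in liver CLP libraries and 516, 323, 341 and 302 RPKM in liver sham libraries. In lung Atp5b, Cox4i1 (the common isoform of subunit 4 of cytochrome oxidase), Atp5a1 and Cox8a were among the highest, at 252, 188, 177 and 157 RPKM in lung CLP libraries and 250, 177, 170 and 140 RPKM in lung sham libraries. Complex I subunits stood lower, with a median over the 35 nuclear members of 57.4 RPKM in liver CLP libraries and 56.1 RPKM in liver sham libraries, and of 35.3 and 36.6 RPKM in lung CLP and lung sham libraries.

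CLP against sham in liver moved few subunits past the test. A gene was called when edgeR's quasi-likelihood test gave a Benjamini-Hochberg adjusted p below 0.05 over all genes tested. Of the 84 tested members 3 were called higher (mt-Nd5, mt-Nd1 and Atp5l) and 1 lower (Ndufa6), against 21.4% higher and 21.0% lower, 42.3% in all, among the 12392 genes tested. The median size of the log2 fold change was 0.06 over the members and 0.40 over all genes. The 95% interval of the fold change lay wholly within 1.5-fold in either direction for 72 of 84 members (85.7%), against 30.3% of all genes, and no member changed by more than 1.5-fold, against 36.1% of all genes. These counts depend on the scaling. With library totals alone, which lowers the median log2 fold change of all genes from -0.01 to -0.21, 1 member was called higher and 9 lower, and with upper-quartile scaling (median -0.11) 1 higher and 3 lower.

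The mitochondria-encoded messenger RNAs stood out from the nuclear ones in liver. All 7 had a positive log2 fold change, with a median of 0.24 against 0.01 for the 77 nuclear members, and in 6 of the 7 the 3 CLP libraries were all above the 3 sham libraries. Groups that do not overlap were common in this comparison, at 6898 of the 12392 genes tested. Of the 7, 2 (28.6%) were called, against 42.3% of all genes. mt-Nd5, a proton-pumping core subunit of complex I, had 6256, 5708 and 6447 CPM in liver CLP libraries, against 4020, 4302 and 4268 CPM in liver sham libraries. Every CLP library was above every sham library, with each group close together. The log2 fold change was 0.55 ± 0.12 (SE, n = 3 each; 95% interval 0.28 to 0.82; edgeR adjusted p = 0.00652), and it stayed past the threshold under all 15 alternatives run, at 0.35 to 0.60. mt-Nd1, the subunit that helps form the coenzyme Q site, had 7683, 6823 and 8339 CPM in liver CLP libraries, against 5547, 5924 and 5837 CPM in liver sham libraries. Its groups did not overlap, and its log2 fold change was 0.40 ± 0.13 (SE; edgeR adjusted p = 0.0326), past the threshold under 7 of 15 alternatives and lost without any single library other than liver CLP 2.

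The other 5 counted mitochondrial genes were not called. mt-Cytb had 10487, 10709 and 10037 CPM in liver CLP libraries, against 6760, 8325 and 9660 CPM in liver sham libraries, a log2 difference of 0.34 (adjusted p = 0.108) with the wider spread among the sham libraries. mt-Co1 had 14342, 13419 and 14661 CPM in liver CLP libraries, against 11510, 13268 and 13107 CPM in liver sham libraries (0.16, adjusted p = 0.315). mt-Nd2 and mt-Nd4 differed by 0.22 and 0.24 on the log2 scale (edgeR adjusted p = 0.183 and 0.187). mt-Nd6, the only counted messenger RNA encoded on the other strand of mitochondrial DNA, had 23.7, 26.4 and 26.3 CPM in liver CLP libraries, against 16.6, 17.5 and 32.2 CPM in liver sham libraries. Its groups overlapped through liver sham 3 (0.20, adjusted p = 0.554), and without that library the log2 difference was 0.57 (edgeR adjusted p = 0.0119). mt-Nd6 lies opposite mt-Nd5 and its reads are few, and the strand setting of the counting is not given in the sources used here. With library totals alone the values of all 7 were lower. They were 0.35 for mt-Nd5, 0.21 for mt-Nd1, 0.15 for mt-Cytb, 0.05 for mt-Nd4, 0.03 for mt-Nd2, 0.01 for mt-Nd6 and -0.03 for mt-Co1. The median of all genes was -0.21 under that scaling.

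Ratios within a library do not depend on the scaling. In liver the counts of mitochondria-encoded subunits over those of nuclear subunits gave 5.99, 6.44 and 6.12 in CLP libraries, against 4.72, 5.32 and 5.24 in sham libraries, or 6.18 ± 0.232 and 5.09 ± 0.326 (SD, n = 3 each). The groups did not overlap. Within the mitochondrial transcripts the balance also differed: mt-Nd5 over mt-Co1 was 0.436, 0.425 and 0.440 in liver CLP libraries, against 0.349, 0.324 and 0.326 in liver sham libraries, and mt-Nd1 over mt-Co1 was 0.536, 0.508 and 0.569 in liver CLP libraries, against 0.482, 0.447 and 0.445 in liver sham libraries. mt-Nd5 and mt-Nd1 were thus higher relative to mt-Co1 in every CLP library than in any sham library. These ratios set the 2 mitochondrial genes called in liver over the counted one with the smallest log2 fold change, so they restate those differences. Of all mitochondria-encoded messenger RNA reads, mt-Nd5 held 12.8%, 12.2% and 12.8% in liver CLP libraries, against 11.3%, 10.5% and 10.1% in liver sham libraries. mt-Nd1 held 15.7%, 14.5% and 16.6%, against 15.5%, 14.4% and 13.8%, which overlapped. As a share of all assigned reads, the mitochondrial messenger RNAs held 4.63%, 4.39% and 4.64% in liver CLP libraries, against 4.07%, 4.18% and 4.48% in liver sham libraries, which overlapped. The nuclear subunits held 0.773%, 0.683% and 0.759% in liver CLP libraries, against 0.863%, 0.787% and 0.854% in liver sham libraries. Both shares have in their denominator a few very abundant liver messenger RNAs: the 10 most abundant nuclear genes held 21.5% to 24.1% of reads in CLP libraries and 18.6% to 20.5% in sham libraries. No p is given for these sums and ratios.

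The 2 mitochondrial ribosomal RNAs, which are not members, are transcribed from the same DNA. Over the 12 libraries mt-Rnr1 had 36389 reads and mt-Rnr2 59010, against 1431094 for mt-Co1. How RNA was selected for the libraries is not given in the sources used here, and its part in these values was not tested. mt-Rnr1 had 260, 234 and 254 CPM in liver CLP libraries, against 392, 307 and 322 CPM in liver sham libraries, and fell by 0.45 on the log2 scale (edgeR adjusted p = 0.0234). mt-Rnr2 was not called in liver (0.30, adjusted p = 0.136). In lung it rose, at 429, 502 and 546 CPM in CLP libraries, against 389, 361 and 302 CPM in sham libraries (0.49, edgeR adjusted p = 0.0138).

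**Figure D2:**
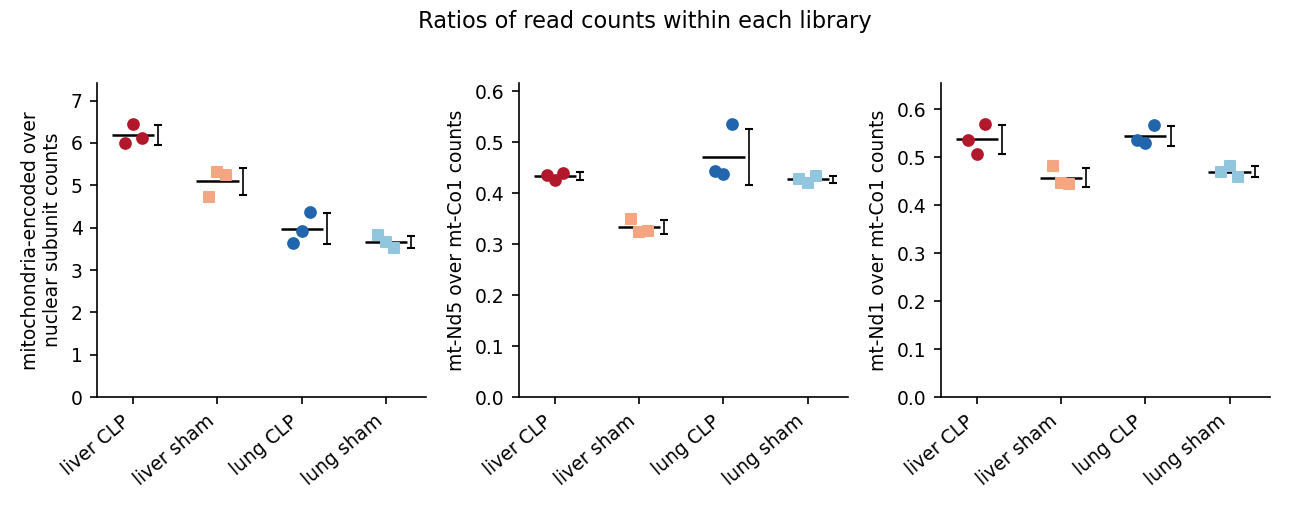
Ratios of read counts within each library: mitochondria-encoded over nuclear subunits (left), mt-Nd5 over mt-Co1 (middle) and mt-Nd1 over mt-Co1 (right). Points are libraries (3 a group), lines are means and bars are SD; in liver the CLP and sham libraries do not overlap in any of the 3 ratios, and in lung they do not overlap in the 2 ratios to mt-Co1.

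Among the nuclear subunits of liver, Ndufa6 and Atp5l were called. Ndufa6, an accessory subunit of the complex I arm that faces the matrix, had 66.8, 60.2 and 67.6 CPM in liver CLP libraries, against 77.2, 73.8 and 89.4 CPM in liver sham libraries. It fell by 0.31 ± 0.11 on the log2 scale (SE; edgeR adjusted p = 0.048) without overlap of the groups, but lost the call without any single library. Atp5l, subunit g of the membrane part of ATP synthase, had 7.15, 8.82 and 6.67 CPM in liver CLP libraries, against 5.30, 5.55 and 4.42 CPM in liver sham libraries. It rose by 0.57 ± 0.18 (edgeR adjusted p = 0.0306), with the call lost without any single library other than liver CLP 3. Ndufs7, a core subunit that carries an iron-sulfur cluster of complex I and was picked after its values were seen, came closest to the threshold among the rest, at 38.3, 28.4 and 34.9 CPM in liver CLP libraries, against 39.9, 44.4 and 43.5 CPM in liver sham libraries (-0.33, adjusted p = 0.0581).

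In complexes II, III and IV no member was called in liver. The 4 succinate dehydrogenase genes had log2 differences of -0.02 (Sdha, the flavoprotein), -0.11 (Sdhb, the iron-sulfur protein), -0.04 (Sdhc) and -0.12 (Sdhd, with Sdhc the membrane anchor), with edgeR adjusted p-values of 0.431 to 0.898 and intervals that stayed within 1.5-fold. With library totals alone Sdhb was at -0.30 (adjusted p = 0.0346) and Sdhd at -0.31 (adjusted p = 0.0496), both past the threshold, beside a median of -0.21 for all genes. The Sdha libraries overlapped, at 442, 368 and 442 CPM in liver CLP libraries and 405, 424 and 443 CPM in liver sham libraries. The 8 nuclear complex III genes lay between -0.05 and 0.10. Of the 13 tested nuclear complex IV genes 12 were positive with a median of 0.13, among them Cox4i1 (0.07), Cox6a1 (0.15), Cox6b1 (0.16), Cox7a2 (0.09), Cox7a2l (0.10), Cox7b (0.05) and Cox8a (0.16), and none was called. The exception in sign was Cox7a1, the heart and muscle isoform of subunit 7a, at 0.401 to 0.923 CPM in liver CLP libraries and 0.658 to 1.04 CPM in liver sham libraries. Apart from Atp5l the 17 tested complex V genes lay between -0.44 and 0.10.

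CLP against sham in lung moved more subunits, in both directions, and none of the mitochondria-encoded ones. Of the 89 tested members 9 were called higher (among them Uqcrfs1, Cox5a, Cox5b, Cox7c, Atp5f1, Atp5g3, Atp5k and Atp5l) and 8 lower (Ndufa6, Ndufv3, Ndufb2, Cox4i2, Cox6b2, Cox7a2l, Ndufa4l2 and Atp5s), against 23.9% higher and 24.9% lower, 48.9% in all, among the 15441 genes tested. The share of members called, 10.1% higher and 8.99% lower, was below that background in both directions. CLP and sham libraries did not overlap in 35 of the 89 members, against 9224 of the 15441 genes tested. The median size of the log2 fold change was 0.11 over the members and 0.37 over all genes, and 71 of 89 members (79.8%) had an interval wholly within 1.5-fold, against 37.0% of all genes. With library totals alone or upper-quartile scaling (median of all genes -0.13 and -0.14, against -0.03) 3 were called higher and 13 lower. All 8 of the lower calls and 3 of the 9 higher ones (Cox5b, Atp5f1 and Atp5l) held under both of those scalings.

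**Figure D3:**
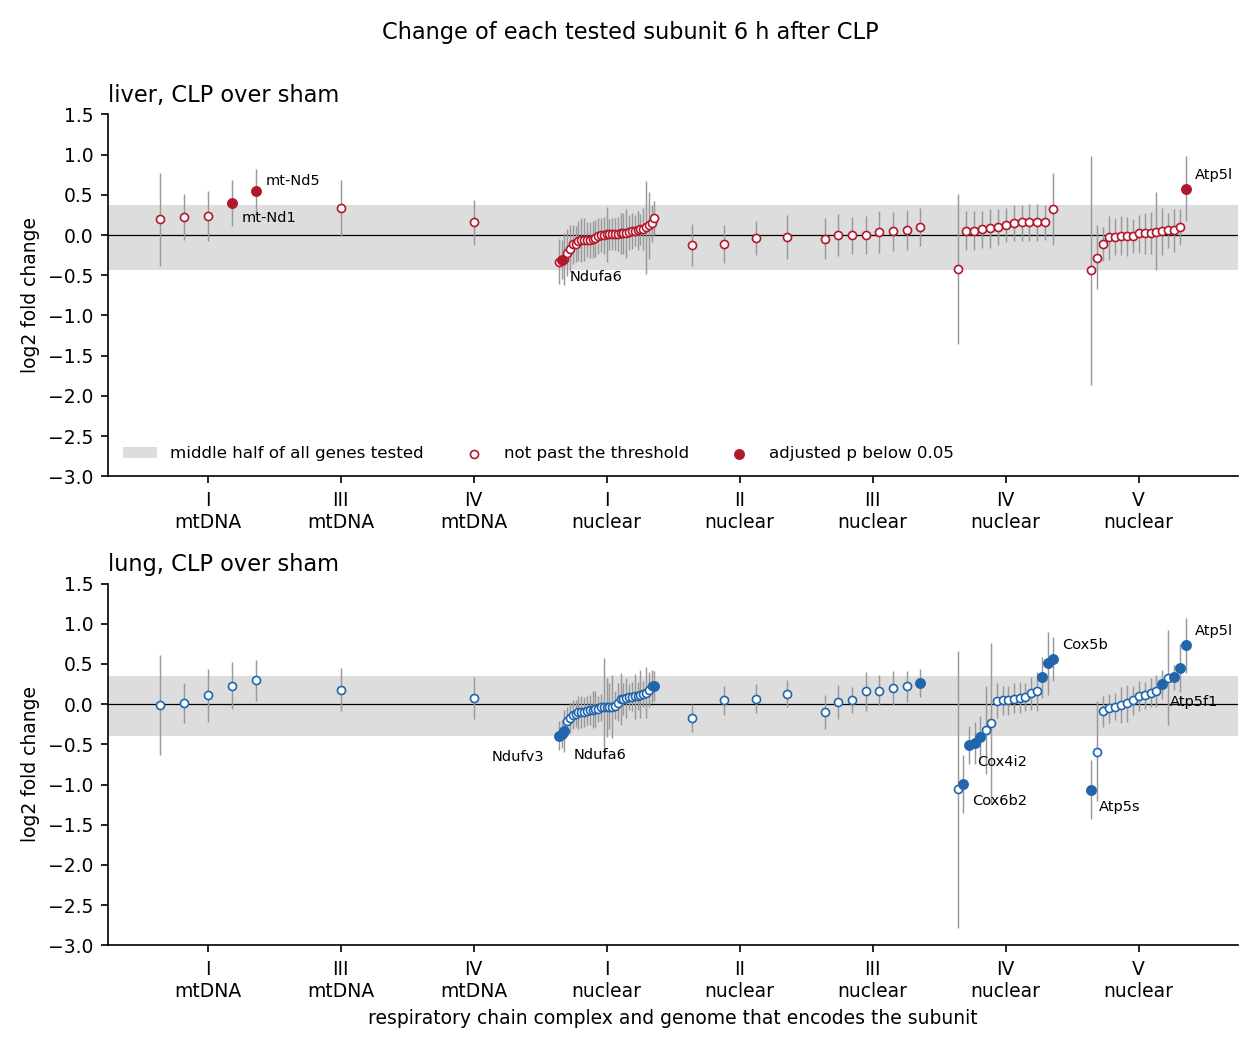
Log2 fold change of CLP over sham for each tested subunit in liver (upper panel, 84 genes) and lung (lower panel, 89 genes), grouped by complex and by the genome that encodes it, with 95% intervals as bars. Filled points passed an adjusted p of 0.05 and the grey band is the middle 50 percent of all genes tested; the members lie mostly inside the band, with mt-Nd5, mt-Nd1 and Atp5l above it in liver and Atp5s and Cox6b2 farthest below it among those called in lung.

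In complex I of lung, 3 of 35 nuclear subunits (8.57%) fell, all of them accessory subunits, and 1 (2.86%) rose. Both shares were below the 24.9% lower and 23.9% higher of all genes. Ndufa6 had 41.7, 43.2 and 44.8 CPM in lung CLP libraries, against 57.4, 56.6 and 53.2 CPM in lung sham libraries. It fell by 0.37 ± 0.07 (SE; edgeR adjusted p = 0.00415), and all CLP libraries lay below all sham libraries. Ndufv3, an accessory subunit near the NADH-binding tip, had 26.6, 29.4 and 28.4 CPM in lung CLP libraries, against 37.9, 36.7 and 36.1 CPM in lung sham libraries, a fall by 0.39 ± 0.08 (adjusted p = 0.00447). Ndufb2, an accessory subunit of the membrane arm, had 12.04, 11.47 and 13.18 CPM in lung CLP libraries, against 14.12, 15.99 and 15.95 CPM in lung sham libraries (-0.33, adjusted p = 0.0414), with the call lost without lung CLP 1, lung CLP 2, lung sham 2 or lung sham 3. Ndufa6 and Ndufv3 kept their calls under all 15 alternatives run. Of the 5 counted mitochondrial subunits of complex I, mt-Nd1 came nearest to the threshold, at 2557, 2908 and 2967 CPM in lung CLP libraries, against 2389, 2364 and 2120 CPM in lung sham libraries. Its groups did not overlap (0.30, edgeR adjusted p = 0.0572), and DESeq2 (adjusted p = 0.00497) and limma-voom (adjusted p = 0.0448) called it. mt-Nd5 had 2113, 2406 and 2796 CPM in lung CLP libraries and 2176, 2059 and 2002 CPM in lung sham libraries, which overlapped (0.23, adjusted p = 0.165).

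The ratios within lung libraries showed the same genes. mt-Nd5 over mt-Co1 was 0.443, 0.437 and 0.535 in lung CLP libraries, against 0.428, 0.420 and 0.434 in lung sham libraries, which were close apart from lung CLP 3. mt-Nd1 over mt-Co1 was 0.537, 0.529 and 0.568 in lung CLP libraries, against 0.470, 0.482 and 0.459 in lung sham libraries, with no overlap. Mitochondria-encoded over nuclear subunits gave 3.63, 3.93 and 4.36 in lung CLP libraries and 3.82, 3.65 and 3.52 in lung sham libraries, which overlapped.

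Complex II had no called member in lung. Sdha had 189, 197 and 199 CPM in lung CLP libraries, against 226, 223 and 210 CPM in lung sham libraries. The groups did not overlap, the log2 difference was -0.17 (edgeR adjusted p = 0.0855), and with library totals alone it was -0.28 and past the threshold (adjusted p = 0.0151). Sdhb, Sdhc and Sdhd differed by 0.13, 0.07 and 0.05. In complex III, Uqcrfs1, the Rieske iron-sulfur protein, rose, at 61.18, 59.95 and 55.07 CPM in lung CLP libraries, against 46.7, 50.9 and 49.2 CPM in lung sham libraries (0.26, adjusted p = 0.0222; lost without lung CLP 1 or lung sham 1). The other 7 nuclear complex III genes lay between -0.10 and 0.22 with none called.

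In complex IV of lung 3 of 18 tested nuclear members (16.7%) were higher and 4 (22.2%) lower. Both shares were below the 23.9% and 24.9% of all genes. The 3 that rose are widely used structural subunits. Cox5b had 40.1, 41.0 and 33.2 CPM in lung CLP libraries, against 28.5, 22.9 and 26.1 CPM in lung sham libraries, and rose by 0.56 ± 0.12 (SE; edgeR adjusted p = 0.00492). Its lowest CLP library exceeded its highest sham library, and it kept the call under all 15 alternatives. Cox5a had 46.6, 55.6 and 43.7 CPM in lung CLP libraries, against 36.0, 37.2 and 42.3 CPM in lung sham libraries (0.34, adjusted p = 0.035; lost without lung CLP 1, lung CLP 2, lung sham 1 or lung sham 2). Cox7c had 5.901, 6.464 and 4.999 CPM in lung CLP libraries, against 4.058, 4.035 and 4.100 CPM in lung sham libraries (0.51, adjusted p = 0.035; lost without any single library other than lung CLP 3). Cox7c shares 22.1% of its 50-base stretches with other transcripts, so its level is uncertain.

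The 4 complex IV genes that fell in lung were Cox6b2, Cox4i2 and Ndufa4l2, isoforms with restricted use, and Cox7a2l, which was far above the floor in liver as well. Cox6b2, known as the testis isoform of subunit 6b, had 5.12, 5.74 and 5.73 CPM in lung CLP libraries, against 9.33, 11.1 and 12.6 CPM in lung sham libraries. It fell by 0.99 ± 0.16 (SE; edgeR adjusted p = 0.00145), and the 3 CLP values lay close together well below the sham values. Cox4i2, the isoform of subunit 4 known from lung and as induced by low oxygen in cultured cells, had 27.49, 25.05 and 30.45 CPM in lung CLP libraries, against 36.52, 38.34 and 43.08 CPM in lung sham libraries, a fall by 0.51 ± 0.10 (adjusted p = 0.00454). Ndufa4l2, a paralog of Ndufa4 also known as a target of hypoxia signalling, had 14.7, 11.8 and 12.9 CPM in lung CLP libraries, against 18.7, 17.7 and 18.6 CPM in lung sham libraries (-0.48, adjusted p = 0.00853). Cox7a2l, a factor of complex III and IV supercomplexes of which C57BL/6J mice carry a shortened allele, had 41.9, 31.8 and 40.5 CPM in lung CLP libraries, against 47.6, 51.1 and 52.7 CPM in lung sham libraries (-0.41, adjusted p = 0.0178; lost without lung sham 2 or lung sham 3). Their groups did not overlap. The common isoforms differed little: Cox4i1 by 0.08, Cox6a1 by 0.05, Cox6b1 by 0.07, Cox7a2 by 0.05, Cox7b by 0.04, Cox8a by 0.16 and Ndufa4 by 0.09 on the log2 scale, none of them called.

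Cox4i2 and Ndufa4l2 are also known as genes of pericytes in lung. Of 11 markers of pericytes and smooth muscle 5 were called lower and 1 higher in lung, against 24.9% lower and 23.9% higher among all genes. Their summed level was 1013, 1325 and 1068 CPM in lung CLP libraries and 1210, 1202 and 1407 CPM in lung sham libraries, which overlapped. None of the 11 was at 0. The summed level of 8 alveolar type 1 markers was 3710, 3237 and 4553 CPM in lung CLP libraries, against 6314, 5933 and 5897 CPM in lung sham libraries. Of these 8 markers 6 were called lower and 0 higher, beside the same 24.9% and 23.9% of all genes. The part of these cell types in the subunit values was not tested.

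**Figure D4:**
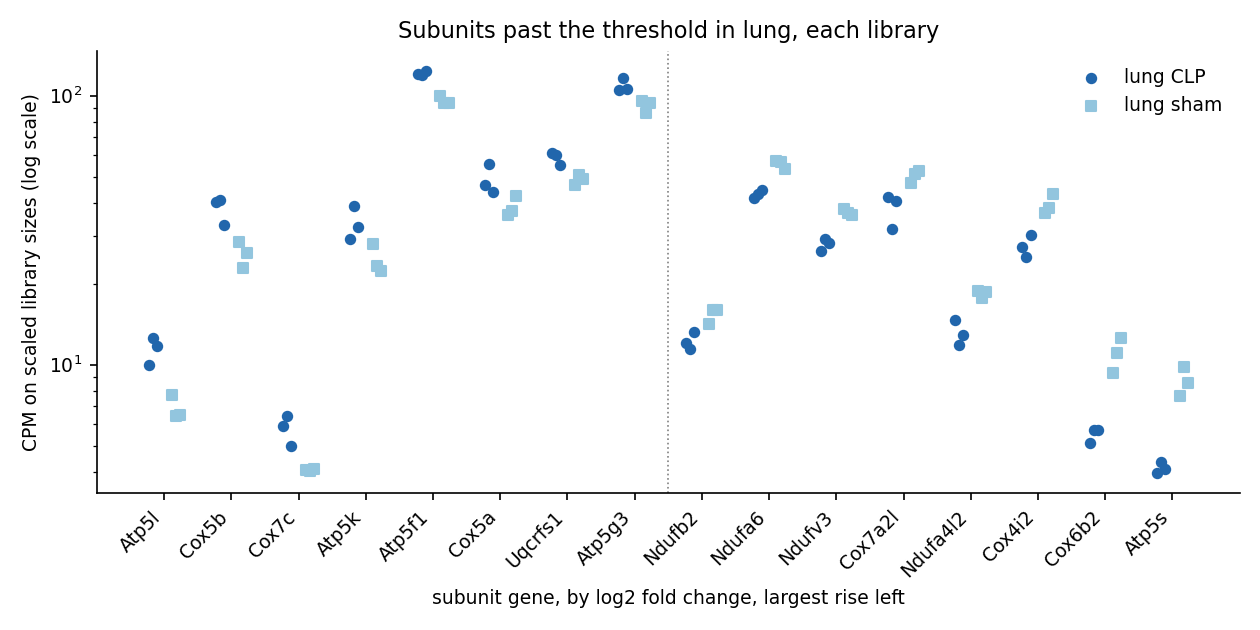
Levels of 16 of the subunits called in lung, in CPM on a log axis, with 1 point per library (3 lung CLP and 3 lung sham), ordered by log2 fold change with 8 higher to the left of the dotted line and 8 lower to the right. The 3 CLP libraries lie wholly above the 3 sham libraries in each gene to the left and wholly below them in each gene to the right. Such groups were common in lung, at 9224 of the 15441 genes tested.

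The heart and muscle isoforms of complex IV varied between lung libraries of the same group. Cox8b had 0.311, 2.83 and 0.273 CPM in lung CLP libraries and 3.00, 2.24 and 2.01 CPM in lung sham libraries. Cox6a2 had 9.861, 16.48 and 8.361 CPM in lung CLP libraries and 14.93, 13.003 and 15.43 CPM in lung sham libraries. Cox7a1 had 2.41, 4.44 and 1.00 CPM in lung CLP libraries and 3.41, 3.06 and 2.91 CPM in lung sham libraries. In all 3 genes lung CLP 2 was highest or next to it and the other CLP libraries were lowest. The sum of 10 heart muscle markers was also highest in lung CLP 2 and lowest in lung CLP 1 and lung CLP 3, at 283, 809 and 81.4 CPM in lung CLP libraries and 618, 539 and 520 CPM in lung sham libraries, with none of the 10 at 0. None of the 3 genes was called (Cox8b -1.06, edgeR adjusted p = 0.271; Cox6a2 -0.32, 0.306; Cox7a1 -0.24, 0.676). Without lung CLP 2, Cox8b was at -2.96 (adjusted p = 0.0011) and Cox6a2 at -0.62 (adjusted p = 0.0104), both past the threshold. The part of heart tissue in these values was not tested.

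In complex V of lung 4 of 17 tested members (23.5%) were higher and 1 (5.88%) lower, against 23.9% and 24.9% of all genes. The share higher was thus near the background. Atp5f1, subunit b of the stalk that holds the catalytic head still, had 120.5, 118.9 and 123.7 CPM in lung CLP libraries, against 99.6, 93.6 and 94.2 CPM in lung sham libraries, and rose by 0.34 ± 0.07 (SE; edgeR adjusted p = 0.00402). Atp5l had 9.94, 12.5 and 11.7 CPM in lung CLP libraries, against 7.71, 6.43 and 6.49 CPM in lung sham libraries, a rise by 0.73 ± 0.15 (adjusted p = 0.0046). Each CLP library exceeded each sham library in these genes, and the call held under all 15 alternatives. Atp5k, subunit e, which sits beside subunit g and helps ATP synthase form dimers, had 29.3, 38.8 and 32.6 CPM in lung CLP libraries, against 28.1, 23.3 and 22.4 CPM in lung sham libraries (0.45, adjusted p = 0.022; lost without lung sham 2 or lung sham 3). Atp5g3 had 105.2, 116.02 and 106.2 CPM in lung CLP libraries, against 95.4, 86.5 and 93.7 CPM in lung sham libraries (0.25, adjusted p = 0.0268; lost without lung sham 1 or lung sham 2). Atp5s, named coupling factor B and known as a distant relative of ATP synthase factors rather than a core subunit, had 3.96, 4.36 and 4.09 CPM in lung CLP libraries, against 7.63, 9.79 and 8.57 CPM in lung sham libraries. It fell by 1.07 ± 0.16 (SE; edgeR adjusted p = 0.00109), the largest fall among the called members. The catalytic subunits Atp5a1 and Atp5b differed by 0.05 and 0.01 on the log2 scale, with intervals of -0.13 to 0.23 and -0.22 to 0.24.

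Several of these genes overlap a neighbour on the opposite strand in the annotation: Ndufb2 with Braf, Cox5a with Gm26631, Atp5f1 with Wdr77, Atp5l with Gm30934, Ndufa4l2 with Shmt2 and Cox6a2 with Itgad. The library kit keeps the strand, but the setting used in counting is not given in the sources used here, so reads of such pairs may not be separated. Of the 85 nuclear members 21 share at least 10% of their 50-base stretches with other transcripts, among them Cox5b (11.9%), Cox7a2l (13.8%), Atp5f1 (14.3%) and Atp5l (10.0%), and their values carry the same uncertainty. These shares are taken over all annotated transcripts of a gene, so the share within its main transcript can be larger. For Atp5l they cover 6487 stretches, while the transcript used for its length has 544 bases. Atp5l had 1170 reads over the 12 libraries.

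Of the 4 members called in liver and the 17 called in lung, 2 were called in both organs and in the same direction: Ndufa6 lower and Atp5l higher. They make up 2 of 4 in liver and 2 of 17 in lung. The promoters of these 2 genes are shown because they carry short motifs of factors that are known to drive nuclear genes of the respiratory chain. They run from 250 bases before to 50 bases after the start of the gene, on GRCm38.p6 from RefSeq, 5′ to 3′ on the strand of the gene, that of Atp5l at chr9:44920693-44920992 and that of Ndufa6 at chr15:82354242-82354541, both on the minus strand. Capitals mark GCGCATGC, the core letters bound by NRF1, or CCGGAAG, letters of the ETS family to which GABPA belongs, read on either strand.
Atp5l: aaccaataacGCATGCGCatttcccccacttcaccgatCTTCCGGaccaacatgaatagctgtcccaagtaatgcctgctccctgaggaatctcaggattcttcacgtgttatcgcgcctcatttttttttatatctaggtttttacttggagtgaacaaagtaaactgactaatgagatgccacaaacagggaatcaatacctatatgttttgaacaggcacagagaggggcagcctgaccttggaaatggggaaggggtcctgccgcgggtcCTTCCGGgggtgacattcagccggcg
Ndufa6: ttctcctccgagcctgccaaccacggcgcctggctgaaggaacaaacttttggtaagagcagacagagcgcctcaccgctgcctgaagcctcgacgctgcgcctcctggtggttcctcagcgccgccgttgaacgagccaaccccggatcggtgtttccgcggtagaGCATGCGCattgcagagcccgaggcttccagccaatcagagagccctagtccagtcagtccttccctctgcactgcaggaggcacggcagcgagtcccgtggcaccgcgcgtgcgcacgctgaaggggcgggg
The NRF1 letters occur in each of these windows and the ETS letters only in that of Atp5l. Over the 66 nuclear members with a promoter in the table, GCGCATGC occurred in 10 (15.2%) against 3.05% of 27025 genes, CCGGAAG in 16 (24.2%) against 9.93%, the cyclic AMP response element TGACGTCA in 4 (6.06%) against 2.03%, and a YY1 motif in 4 (6.06%) against 0.755%. The 27025 genes were all those with a promoter listed, including genes not tested here. A comparison with tested genes only was not made. A match is a description of letters and does not show that a factor binds there. Nrf1 and Gabpa themselves were not called. Nrf1 had a log2 difference of 0.32 in liver (edgeR adjusted p = 0.0838) and 0.05 in lung (0.686). Gabpa had 0.06 (0.62) in liver and -0.09 (0.422) in lung. Their part in the subunit values was not tested.

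The response to CLP was compared between lung and liver in a model of all 12 libraries, whose interaction term gives the lung log2 fold change minus that of liver. Of 89 tested members 0 were higher and 3 lower in lung, against 8.89% higher and 8.84% lower, 17.7% in all, of 16111 genes. At an unadjusted p below 0.05, 3 members were higher in lung, namely Atp5k at 0.46 (edgeR adjusted p = 0.113), Cox5b at 0.40 (0.0802) and Atp5f1 at 0.32 (0.088), and DESeq2 and limma-voom called 1 member higher each. The 3 lower ones were Atp5s, Cox7a2l and Ndufv3. Atp5s had -0.82 ± 0.23 (SE; adjusted p = 0.0258), with 5.38, 5.21 and 5.02 CPM in liver CLP libraries and 7.48, 5.55 and 5.92 CPM in liver sham libraries beside the lung values above. Cox7a2l had -0.53 ± 0.15 (adjusted p = 0.0283), with 31.7, 32.3 and 35.8 CPM in liver CLP libraries and 31.8, 29.3 and 32.1 CPM in liver sham libraries. Ndufv3 had -0.41 ± 0.12 (adjusted p = 0.0291), with 37.2, 34.5 and 40.4 CPM in liver CLP libraries and 38.7, 36.1 and 37.7 CPM in liver sham libraries. In all 3 the lung groups did not overlap. The liver groups overlapped in Cox7a2l and Ndufv3, while in Atp5s each liver CLP library lay below each liver sham library (-0.28, not called). All 3 lost the call with library totals alone.

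The genes called in liver were not shown to respond differently in lung. The difference was -0.35 for mt-Nd5 (95% interval -0.87 to 0.18, edgeR adjusted p = 0.37), -0.13 for mt-Nd1 (adjusted p = 0.787), -0.09 for Ndufa6 (0.703) and 0.13 for Atp5l (0.78). Over the 7 mitochondria-encoded genes it lay between -0.35 and -0.11, and its intervals reached from -1.10 for mt-Nd6 to 0.63 for the same gene, so that differences of this size could not be told from none.

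The baseline of the organs was compared in sham libraries, lung over liver. Of 89 tested members 5 were called higher in lung and 82 lower, against 45.6% higher and 38.5% lower, 84.1% in all, of 15414 genes. The median log2 difference was -2.52 over the 7 mitochondria-encoded and -1.97 over the nuclear ones, against 0.15 over all genes. Lowest p-values belonged to Uqcrq, a small subunit of complex III (21.2, 20.9 and 21.7 CPM in sham lung, against 213, 236 and 245 CPM in sham liver, -3.44 ± 0.09, SE), Ndufb9, an accessory subunit of complex I (-2.66 ± 0.07), and Uqcrfs1 (-2.95 ± 0.08), with edgeR adjusted p-values of 1.26e-10, 1.9e-10 and 1.93e-10. The 3 lung libraries lay far below the 3 liver libraries in each. These CPM are scaled for this comparison and differ from those given within an organ. The size of the difference rests on the scaling, because the libraries of the organs differ in composition: with library totals alone the median of all genes was 1.45, 9 members were higher and 71 lower, and several members turned positive, among them Atp5l, Atp5s, Cox7a2l and Cox7c.

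The 5 members that were higher in sham lung are all complex IV isoforms. Cox4i2 had 450, 513 and 578 reads in sham lung, against 0, 0 and 1 in sham liver. Cox6a2 had 184, 174 and 207 reads in sham lung and 0 in each sham liver library, and Cox8b had 37, 30 and 27 reads in sham lung and 0 in each sham liver library. Cox6b2 had 115, 148 and 169 reads in sham lung, against 2, 0 and 3 in sham liver. Ndufa4l2 had 231, 237 and 250 reads in sham lung, against 7, 14 and 14 in sham liver (log2 difference 3.17, edgeR adjusted p = 1.18e-07). For Cox6a2 and Cox8b the 10 heart muscle markers, 9 of them called higher in sham lung, moved with the organ as well. The genes of this group other than Ndufa4l2 stayed near 0 in liver after CLP too, at 0 to 2 reads in each liver CLP library. Only Cox7a1 and Atp5g2 were not called between the organs.

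**Figure D5:**
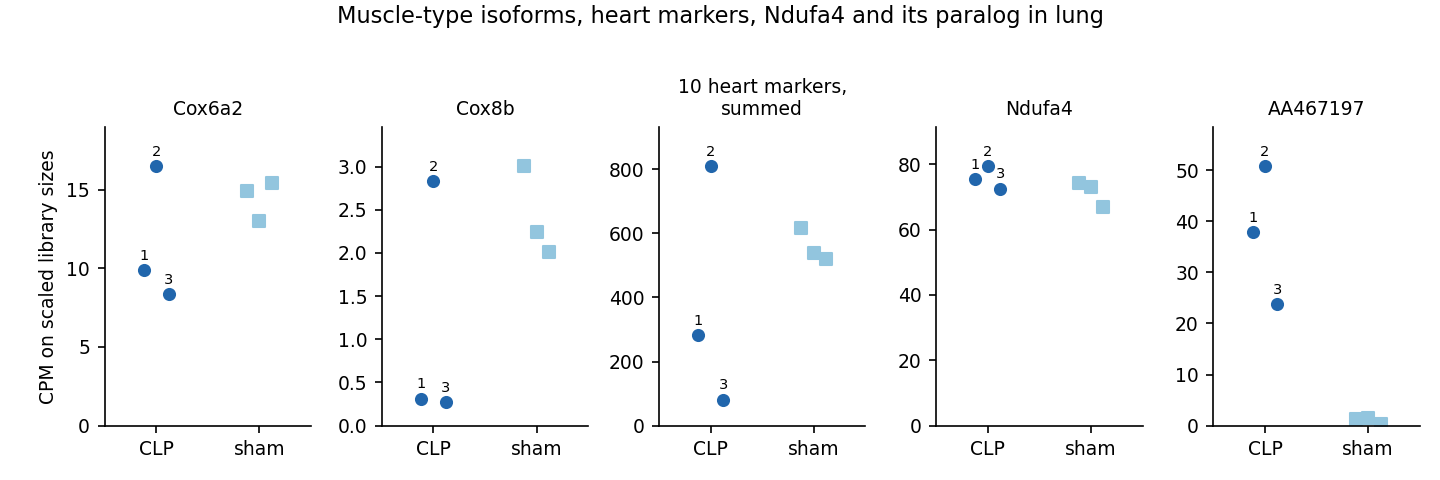
Levels in lung libraries of Cox6a2, Cox8b, the sum of 10 heart muscle markers, Ndufa4 and AA467197, in CPM with each axis starting at 0; points are libraries (3 lung CLP, numbered by replicate, and 3 lung sham). Cox8b and the heart markers are high in lung CLP 2 and low in lung CLP 1 and 3, Ndufa4 overlaps between groups, and AA467197 is at 23.7 to 50.7 CPM in CLP libraries and 0.373 to 1.49 CPM in sham libraries.

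A paralog outside the members, AA467197, also called Nmes1, encodes a small protein related to Ndufa4 that in mouse macrophages is known to take the place of Ndufa4 in complex IV during inflammation. It had 13, 13 and 11 reads in liver CLP libraries and 0 in each liver sham library. In lung it had 37.9, 50.7 and 23.7 CPM in CLP libraries, against 1.22, 1.49 and 0.373 CPM in sham libraries, and rose by 5.18 ± 0.44 (SE, n = 3 each; edgeR adjusted p = 0.000179). CLP and sham libraries were far apart in each organ. Ndufa4 itself was not called: it had 196, 181 and 198 CPM in liver CLP libraries and 171, 189 and 193 CPM in liver sham libraries (0.05, adjusted p = 0.713), and 75.5, 79.3 and 72.5 CPM in lung CLP libraries and 74.1, 72.9 and 66.9 CPM in lung sham libraries (0.09, adjusted p = 0.37). Neutrophil markers rose in the same libraries, and their part in the rise of AA467197 was not tested.

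Genes that help build the complexes were also counted. Of 15 complex I assembly factors 7 were called lower and 1 higher in liver, with a median log2 fold change of -0.28, and of 32 assembly factors of complexes II to V 7 were lower and 0 higher. The shares lower, 46.7% and 21.9%, stand beside 21.0% of all genes, so that of complexes II to V was near the background. Tmem126b, a part of the complex that assembles the membrane arm of complex I, had 11.5, 10.4 and 10.8 CPM in liver CLP libraries, against 20.2, 19.6 and 16.6 CPM in liver sham libraries (-0.78, edgeR adjusted p = 0.00155). Timmdc1, from the same assembly complex, fell by 0.69 (adjusted p = 0.00216). Coa6, a copper-handling assembly factor of complex IV, had 6.61, 5.29 and 7.08 CPM in liver CLP libraries, against 14.7, 16.9 and 16.1 CPM in liver sham libraries (-1.33, adjusted p = 0.000282), and Taco1, a translational activator of mt-Co1, fell by 0.76 (adjusted p = 0.00169). In all 4 the CLP libraries lay below the sham libraries. In lung 2 complex I factors were higher and 2 lower of 15, and 5 of 32 of the others were lower and 0 higher, against 23.9% higher and 24.9% lower among all genes. Tmem126b fell there too, by 0.61 (adjusted p = 0.0095), as did Cox14, a complex IV factor, by 0.63 (adjusted p = 0.00061) and Bcs1l, which inserts the Rieske protein into complex III, by 0.64 (adjusted p = 0.0116; lost without lung sham 3). Foxred1, a complex I factor, rose by 0.28 (adjusted p = 0.0249; lost without lung sham 1 or lung sham 3 and under both other scalings).

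Genes that copy and transcribe mitochondrial DNA were also counted. Of 18 such genes 7 (38.9%) were called lower and 0 higher in liver, against 21.0% lower and 21.4% higher among all genes. Twnk, the helicase of mitochondrial DNA, had 9.83, 12.3 and 11.9 CPM in liver CLP libraries, against 31.5, 28.1 and 27.6 CPM in liver sham libraries (-1.35 ± 0.12, SE; edgeR adjusted p = 0.00013). Polg2, the accessory subunit of the mitochondrial DNA polymerase, fell by 2.03 (adjusted p = 0.000378), and Tfam, which packs mitochondrial DNA and starts its transcription, had 31.43, 29.97 and 31.07 CPM in liver CLP libraries, against 37.05, 38.72 and 40.29 CPM in liver sham libraries (-0.33, adjusted p = 0.0169). In lung 6 of 18 (33.3%) were lower and 2 (11.1%) higher, against 24.9% and 23.9% of all genes. Mterf2, a factor related to mitochondrial transcription termination, fell by 1.04 (adjusted p = 0.00416) and Polg, the polymerase subunit, by 0.32 (adjusted p = 0.00551), while Tfam rose, at 30.28, 28.52 and 30.35 CPM in lung CLP libraries, against 24.996, 22.72 and 23.41 CPM in lung sham libraries (0.33, adjusted p = 0.0132). Tfam and Ppargc1a were picked outside the rule for named genes.

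Among 18 genes of mitochondrial RNA processing and stability, 3 (16.7%) rose and 4 (22.2%) fell in liver, against 21.4% and 21.0% of all genes, and 6 (33.3%) rose and 0 fell in lung, against 23.9% and 24.9%. Pnpt1, a mitochondrial exoribonuclease that is also an interferon-induced gene, had 87.8, 76.3 and 89.4 CPM in liver CLP libraries, against 33.6, 36.1 and 35.3 CPM in liver sham libraries (1.27 ± 0.10, SE; edgeR adjusted p = 6.5e-05), and rose by 0.73 in lung (adjusted p = 0.00198). Fastkd1, known in human cells to act on the messenger RNA of mt-Nd3, fell by 1.21 in liver (adjusted p = 0.000378), and Mtpap, the mitochondrial poly(A) polymerase, rose by 0.48 in lung (adjusted p = 0.00426). Of the mitochondrial ribosomal proteins 6 of 75 rose and 5 fell in liver, and 15 of 77 rose and 7 fell in lung. These are 8.0% and 6.67% in liver and 19.5% and 9.09% in lung, all below the shares of all genes. Mrpl18 rose by 1.38 in liver (adjusted p = 0.000507) and Mrpl49 fell by 1.14 (adjusted p = 0.00147), and in lung Mrpl52 rose by 1.08 (adjusted p = 7.7e-05) and Mrpl17 by 0.62 (adjusted p = 0.00123). The cytosolic ribosomal proteins, another large set of short housekeeping messenger RNAs, had 16 of 75 higher and 0 lower in liver and 29 of 77 higher and 0 lower in lung. The shares higher, 21.3% and 37.7%, stand beside 21.4% and 23.9% of all genes. Rpl10 rose by 0.67 in liver (adjusted p = 0.00221) and by 1.08 in lung (adjusted p = 0.000654), Rps9 by 0.47 in liver (adjusted p = 0.00534; lost with library totals alone) and Rpl10a by 0.91 in lung (adjusted p = 0.00138).

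Regulators of mitochondrial gene expression moved in both directions. In liver 4 of 15 (26.7%) rose and 6 (40%) fell, against 21.4% and 21.0% of all genes. In lung 5 of 17 (29.4%) rose and 3 (17.6%) fell, against 23.9% and 24.9%. Esrra, a nuclear receptor that drives genes of oxidative metabolism, had 6.15, 6.01 and 5.44 CPM in liver CLP libraries, against 19.3, 16.3 and 16.9 CPM in liver sham libraries (-1.57 ± 0.13, SE; edgeR adjusted p = 9.2e-05). Ppargc1a, the coactivator known for raising mitochondrial number, had 1.61, 4.17 and 2.56 CPM in liver CLP libraries, against 5.74, 5.26 and 5.08 CPM in liver sham libraries (-0.94, adjusted p = 0.0366). Hif1a, the oxygen-regulated transcription factor, had 203, 159 and 150 CPM in liver CLP libraries, against 33.3, 46.6 and 34.8 CPM in liver sham libraries (2.16, adjusted p = 7.2e-05), and rose by 1.66 in lung (adjusted p = 0.000548). In lung Myc, a growth-promoting transcription factor, rose by 2.85 (adjusted p = 0.000175) and Nrip1, a corepressor of oxidative genes, by 0.73 (adjusted p = 0.00052), while Esrra and Ppargc1a differed by -0.02 (adjusted p = 0.835) and 0.08 (adjusted p = 0.652). CLP and sham libraries did not overlap for any of the genes named here as risen or fallen.

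Genes that feed electrons into the chain were mostly not called in liver. Of 18 genes of the tricarboxylic acid cycle and pyruvate dehydrogenase 1 (5.56%) was called lower and 0 higher in liver. All genes stood at 21.0% lower and 21.4% higher. Sucla2 differed by -0.30 (edgeR adjusted p = 0.0656). In lung 4 (22.2%) rose and 1 (5.56%) fell, against 23.9% and 24.9% of all genes, with Dlst and Dld, subunits of the 2-oxoglutarate dehydrogenase complex, higher by 0.46 and 0.47 (adjusted p = 0.00139 and 0.0017). Of 20 genes of electron entry, coenzyme Q synthesis and carriers 4 (20%) fell and 0 rose in liver, against 21.0% and 21.4% of all genes, among them Coq9 (-0.41, adjusted p = 0.0162; lost without liver sham 3) and Coq3 (-0.36, adjusted p = 0.0193; lost without liver CLP 3, liver sham 2 or liver sham 3), which take part in making coenzyme Q. In lung 3 (15%) rose and 2 (10%) fell, both shares below those of all genes. Slc25a5, an ADP/ATP carrier, had 138, 143 and 140 CPM in lung CLP libraries, against 90.7, 101 and 102 CPM in lung sham libraries (0.52, adjusted p = 0.000843), and Coq8a fell by 1.00 (adjusted p = 0.00119).

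Of the glycolytic genes 7 of 16 (43.8%) were higher, 1 lower and the rest not called in liver, against 21.4% of all genes higher. In lung 12 of 17 (70.6%) were higher and 1 lower, against 23.9% of all genes higher. Pfkfb3, which makes the activator of phosphofructokinase, had 593, 351 and 416 CPM in liver CLP libraries, against 26.1, 19.9 and 35.0 CPM in liver sham libraries (4.07, edgeR adjusted p = 6.5e-05), and rose by 1.61 in lung (adjusted p = 0.000174). The lactate exporter Slc16a3 had 5.22, 6.49 and 3.28 CPM in liver CLP libraries, against 0.363, 0.444 and 0.418 CPM in liver sham libraries (3.59, adjusted p = 0.000181), and Hk2, a hexokinase, rose by 1.24 in lung (adjusted p = 0.000121). Among 12 tested genes of paralogs, uncoupling and alternative entry 3 (25%) rose and 2 (16.7%) fell in liver, against 21.4% and 21.0% of all genes. Of 14 in lung 5 (35.7%) rose and 3 (21.4%) fell, against 23.9% and 24.9%. Acod1, which makes the succinate dehydrogenase inhibitor itaconate in activated myeloid cells, had 31.3, 16.7 and 21.2 CPM in liver CLP libraries, against 0.436, 0 and 0.0598 CPM in liver sham libraries (adjusted p = 0.000123), and Pdk2, a kinase that switches off pyruvate dehydrogenase, fell by 1.55 in liver (adjusted p = 0.000126) and by 1.28 in lung (adjusted p = 0.000145). CLP and sham libraries were clearly apart in each of these genes. Slc16a3, Hk2, Pfkfb3 and Acod1 are also active in neutrophils or macrophages. All tested neutrophil markers rose in both organs. Of 10 markers of monocytes and macrophages 9 (90%) rose and 0 fell in lung, against 23.9% and 24.9% of all genes. In liver 4 (40%) rose and 1 (10%) fell, against 21.4% and 21.0%. Their summed level overlapped between CLP and sham in both organs. It was 5725, 5925 and 5960 CPM in lung CLP libraries and 5558, 5924 and 5734 CPM in lung sham libraries. In liver it was 149, 184 and 174 CPM in CLP libraries and 182, 162 and 180.3 CPM in sham libraries. The part of those cells was not tested.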

How the data were processed

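The authors deposited raw counts per gene for 12 libraries; totals are in the report. Per the labels' protocols, total RNA from tissue kept in RNAlater was isolated with an Aurum kit, made into libraries with an Illumina TruSeq stranded kit and sequenced on a NextSeq500. Per the submitters' processing notes, FastQC, STAR 2.7.10a, featureCounts, DESeq2 and mm39 were used, with no role or order stated. Not given in the sources used here: the treatment of reads with several best places, the strand setting, the annotation release and the selection of RNA. All genes enter the counts; 3333 of the gene identifiers have no symbol in the reference and 52081 have one.

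From the deposited counts, edgeR 4.0.16 (R 4.3.3, limma 3.58.1) fitted quasi-likelihood models to the 6 libraries of each comparison (12 for the difference between organs) after a filter on low counts (filterByExpr, minimum 10 in the smaller group, 15 in total) and TMM scaling. Genes with a Benjamini-Hochberg adjusted p below 0.05 over all genes tested were called; SE is the size of the log2 fold change over the square root of F. CPM are on TMM-scaled totals of each comparison. DESeq2 1.42.0 and limma-voom were alternatives, and the procedure was tested on simulated data. Symbols, biotypes, lengths and overlaps came from GENCODE M21 (GRCm38), which is older than mm39. The labels do not say that a replicate number marks a shared mouse or batch, and not every correlation of same-numbered libraries passed 0.1, so libraries were not paired.

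Named were all mitochondria-encoded members, the Sdh genes, tissue isoforms, the 2 lowest p-values per complex, organ and direction, the 3 lowest per direction between organs, the 4 highest nuclear members per organ, the largest called change against the majority, the 2 lowest p-values of each pathway list and AA467197. Some results are not reported here. Other called members, Ndufs7, Tfam, Ppargc1a, Nrf1 and Gabpa were added after their values were seen. Members and lists were chosen with earlier results of these data known.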

Additional observations from a re-analysis of the deposited data

Results flagged for a closer look

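The response to CLP differed between lung and liver in 3 members by the interaction term of a model of all 12 libraries (edgeR, adjusted over all genes). Atp5s had a lung minus liver difference of -0.82 (95% interval -1.31 to -0.32, adjusted p = 0.0258), with log2 fold changes of -1.07 in lung and -0.28 in liver. Cox7a2l had -0.53 (-0.86 to -0.20, adjusted p = 0.0283), with -0.41 in lung and 0.10 in liver. Ndufv3 had -0.41 (-0.67 to -0.16, adjusted p = 0.0291), with -0.39 in lung and -0.01 in liver. In each gene all 3 lung CLP libraries lay below all 3 lung sham libraries. The calls held under 10, 10 and 8 of 20 alternatives. Ndufv3 lost its call without any single library other than liver CLP 2, lung CLP 2 and lung CLP 3, Cox7a2l without any liver library, lung CLP 2, lung sham 2 or lung sham 3, and Atp5s without liver CLP 1, liver CLP 2, liver sham 2, liver sham 3, lung CLP 1, lung sham 2 or lung sham 3.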

How the results depend on the processing

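Of the values of single named genes under the alternatives, 3057 kept their side of the threshold and, if called, their direction, 27 gained and 113 lost a call, and 3 called values changed sign. Values that were not called changed sign more often, 41 of them with library totals and 24 with upper-quartile scaling. In liver the members called higher, 3 as reported, numbered 1 with library totals alone and with upper-quartile scaling, and 1 to 2 when each library was left out in turn. Those called lower, 1 as reported, numbered 9 with totals, 3 with upper quartile, 2 with the length trend removed and in a model of all 12 libraries, 0 with DESeq2 and limma-voom, and 0 to 1 with a library left out. In lung 9 were called higher, against 3 with totals and with upper quartile and 4 to 14 with a library left out (14 without lung CLP 3, 4 without lung sham 2, 5 without lung sham 1); the 8 lower became 13 with totals and with upper quartile and 6 to 10 with a library left out. For the difference between organs the 0 higher became 3 with totals and 1 with DESeq2 and limma-voom, and 0 to 2 with a library left out, and the 3 lower became 0 with totals, 1 without the filter and 0 to 3 with a library left out. Between sham organs the 5 higher became 9 with totals and stayed at 5 with a library left out, and the 82 lower became 71 with totals and 80 with the length trend removed, and 82 to 83 with a library left out. There, with totals, Atp5l at 0.39, Atp5s at 0.41 and Cox7a2l at 0.65 were among the members that turned positive. Over all genes, totals gave 1690 higher and 3793 lower in liver (2647 and 2600 with TMM) and 2976 and 4848 in lung (3698 and 3850); the cause was not tested.

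The share of mitochondrial messenger RNAs in liver was 0.31 percentage points higher in CLP libraries, 0.597 without the 10 most abundant nuclear genes and 0.223 to 0.428 with a library left out. The nuclear share differed by -0.096 (-0.12 to -0.069). In lung the differences were 0.063 (-0.013 to 0.172) and -0.022 (-0.033 to -0.014).

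Replicate numbers were not shown to pair libraries. Correlations of same-numbered libraries were 0.06, 0.16 and 0.21 in liver, where each correlated best with its own number, and 0.02, 0.11 and 0.02 in lung, where not all did. Between organs they were 0.18, 0.07 and 0.23 in CLP libraries, each best with its own number, and -0.03, 0.05 and 0.09 in sham libraries; this is a hint from the data and not from the design. With the replicate number as a block, 3 members were higher and 1 lower in liver, 4 and 7 in lung, 0 and 1 for the difference between organs, and 5 and 82 between sham organs.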
